A study of Mus musculus with 32 samples.

Results

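GABA-A receptors are chloride channels opened by the inhibitory transmitter GABA, and 7 of the genes that encode their subunits were followed here: Gabra2, Gabra3, Gabra4, Gabra5, Gabrb1, Gabrb2 and Gabrd. They were chosen by symbol and read by their Ensembl identifier among 55573 genes of a table of RNA-seq counts, and 12 other subunit genes are given for comparison. All 7 passed the filter on low counts, which kept genes that averaged 10 counts or more across the libraries fitted. The counts came from hippocampal neurons of newborn mice grown on a porous membrane insert, in which cell bodies stay on top (soma fraction, which can hold some neurites) and dendrites and axons grow through and are scraped from below (neurite fraction). WT neurons were of the C57BL/6 strain, and Mettl3 KO neurons came from mice with both alleles of Mettl3 floxed (Mettl3Flox/Flox). Mettl3 is the catalytic subunit of the enzyme that writes m6A, a methyl mark on adenosines of mRNA. Neurons of both genotypes received an adeno-associated virus that expresses Cre and dTomato from the neuronal hSyn promoter at day 7 in vitro, so the WT neurons also expressed Cre, while glia of the Mettl3Flox/Flox cultures were not targeted by that promoter. All cultures were silenced for 16 h with the sodium channel blocker tetrodotoxin (1 µM) and the NMDA receptor antagonist D-AP5 (50 µM). At day 15 they were left as they were (Ctrl) or depolarized with 55 mM KCl for 2 h. Soma and neurites, WT and KO, Ctrl and KCl gave 8 groups of 2 libraries, each from the pooled hippocampi of 1 litter, so strain and genotype cannot be told apart. DART-seq, in which a fusion of the deaminase APOBEC1 to an m6A-binding domain turns cytidines next to m6A into uridines, covered a further 16 libraries.

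A GABA-A receptor is built of several subunits around a pore, most often alpha and beta subunits together with a gamma or the delta subunit. The alpha subunit sets much of the affinity for GABA and the place of the receptor in the cell. Receptors with alpha2 are common at synapses and at the axon initial segment, whereas those with alpha5, and those that combine alpha4 with delta, lie largely outside synapses and carry the tonic current that hippocampal neurons are known for. The beta subunits form part of the GABA binding site and hold phosphorylation sites that set how many receptors stay on the surface.

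Most members lie in the gene clusters typical of this family, and coordinates are those of GENCODE M21 on GRCm38. Gabra2 (ENSMUSG00000000560, chr5:70957597-71095849, minus strand), Gabra4 (ENSMUSG00000029211, chr5:71569749-71658308, minus strand) and Gabrb1 (ENSMUSG00000029212, chr5:71658113-72149037, plus strand) share a cluster on chromosome 5 with Gabrg1. Gabra5 (ENSMUSG00000055078, chr7:57407672-57510059, minus strand) lies beside Gabrg3 on chromosome 7. Gabrb2 (ENSMUSG00000007653, chr11:42419757-42629028, plus strand) lies beside Gabra6 on chromosome 11. Gabra3 (ENSMUSG00000031343, chrX:72432681-72656848, minus strand) lies between Gabre and Gabrq on chromosome X, and Gabrd (ENSMUSG00000029054, chr4:155384980-155398112, minus strand) has no member or listed subunit gene beside it. Gabra4 and Gabrb1 stand head to head with starts 195 bases apart and share 46 exon bases on opposite strands. No strand setting was stated for the counting, so fragments from those 46 bases, of 6083 exon bases in Gabra4 and 13838 in Gabrb1, cannot be told apart. The exons of Gabra5 overlap 148 bases of the antisense gene Gm9962, which had a count of 60 at most.

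Only Gabra5 was on the authors' list of methylated RNAs, which holds 5643 RNAs, so 1 of the 7 members was listed. Of the 7665 genes whose per-length level lay within the range of the members, 54.0% were listed. The study called a site only above a minimum read depth and in more than 1 replicate. A member that was not listed is therefore not shown to lack m6A. Both Gabra5 sites lie in the coding sequence, at chr7:57413770 (exon 9 of 10, coding base 905 of 1389) and chr7:57488950 (exon 5 of 10, coding base 349). They are printed because they are the only called m6A sites among the members. The sequence is that of GRCm38 on the minus strand from 13 bases before to 13 bases after the edited C, the capitals mark the RAC motif (R is A or G) that the authors required, and the last capital is the edited C.
Gabra5 site in exon 9, chr7:57413757-57413783: ctgaccatgacAACactcagcatcagt
Gabra5 site in exon 5, chr7:57488937-57488963: gggccccatgcAACgcctccctctcaa
The C-to-U fraction deposited for each site, a mean over libraries that are not named further, was 7.52% at the exon 9 site and 1.63% at the exon 5 site. The authors' score of an RNA, which sums over its sites the mean fraction in the libraries of 1 condition, was 0.0727 for Gabra5 in WT and 0.0117 in Mettl3 KO, against medians of 0.103 and 0.0285 over all listed RNAs. Sites were kept for an excess in WT, so this direction follows from how they were called. Its score was 0.107 in soma and 0.0370 in neurites, a ratio of 0.345 where the median ratio over all listed RNAs was 1.30, and 31.2% of the listed RNAs had a lower score in neurites than in soma. The scores are averages over libraries, so their depth and spread are unknown and no test was made.

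Total counts ran from 33789183 to 71394235 per library. Mettl3 measured 8.94 and 10.98 CPM (counts per 1000000 counts of a library, with totals scaled by the trimmed mean of M values, TMM) in KO soma Ctrl against 16.7 and 16.2 in WT soma Ctrl, and 3.91 and 6.76 in KO neurites against 12.01 and 12.5 in WT neurites. The log2 changes of −0.72 and −1.20 did not pass (edgeR adjusted p = 0.625 and 0.397), and the count covers the whole gene, with exons outside the deleted part and RNA of cells without Cre. Neuronal markers (10 genes) summed to between 3367 and 4853 CPM in the WT libraries. The soma and neurite libraries of KCl-treated KO insert 1 stood apart. There the 11 astrocyte markers summed to between 10552 and 20366 CPM (2180 to 7175 in the other 6 KO libraries, 1427 to 3443 in WT), the 7 oligodendrocyte markers to between 3670 and 7336 (85.8 to 191, and 58.0 to 124) and the neuronal markers to between 853 and 1665 (2887 to 5208 in the other KO libraries). The 7 microglial markers (173 to 236 CPM, against 10.4 to 34.7 elsewhere) and the 12 markers of fibroblasts and vessels (142 to 763, against 14.03 to 86.6) were also higher in that insert, and no marker of these lists was at 0 in any library. Results that rest on these 2 libraries are given with and without them.

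**Figure D1:**
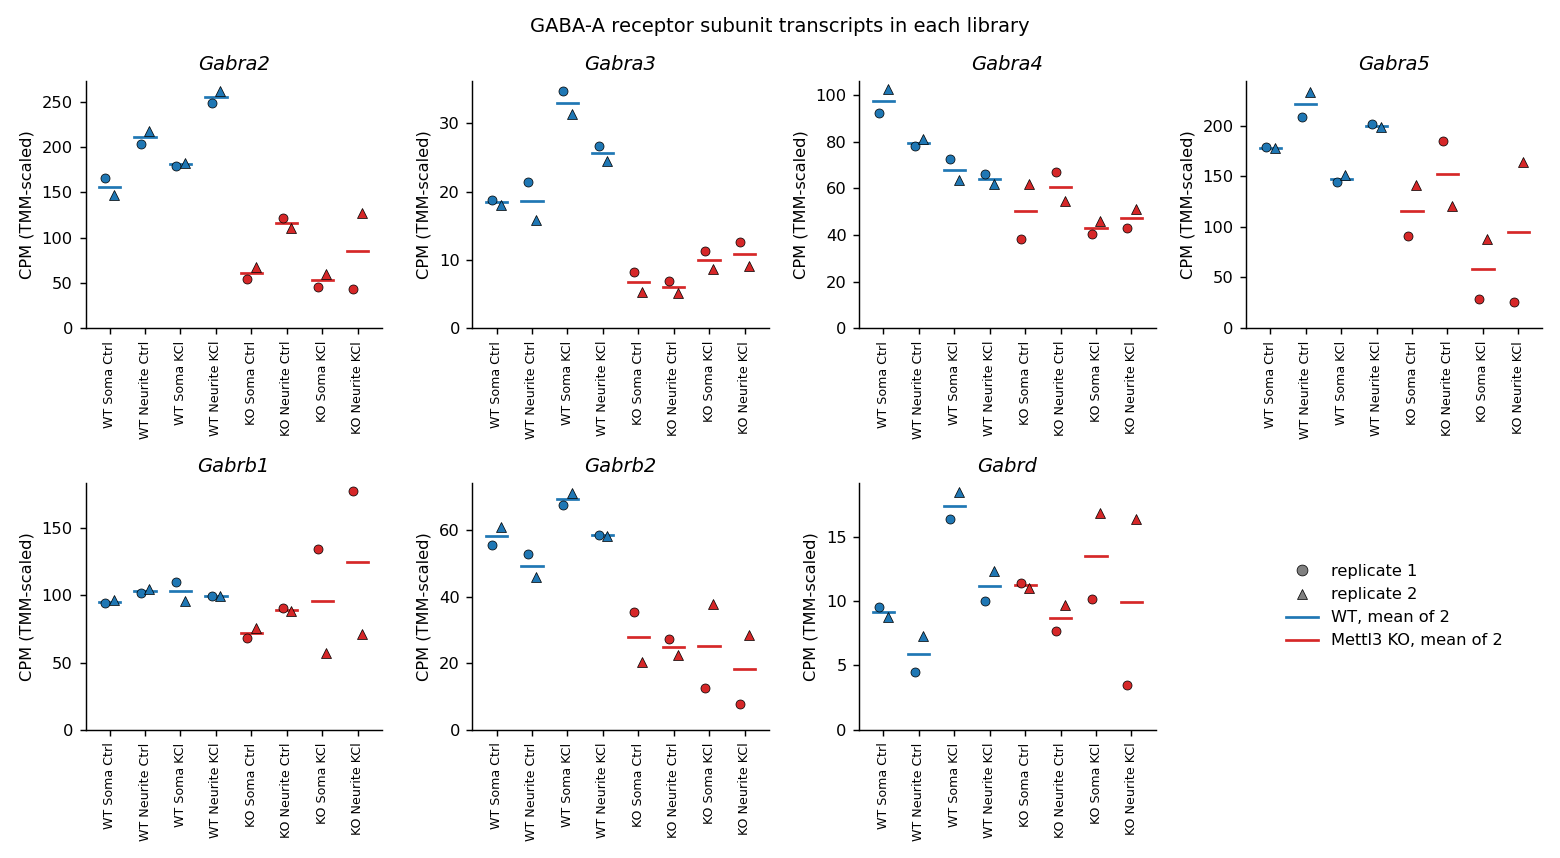
Level of each subunit transcript in CPM (TMM-scaled, linear axis from 0) in the 16 libraries, with a circle for replicate 1, a triangle for replicate 2 and a line at the mean of 2. Most WT pairs lie close together, that of Gabrd in untreated neurites less so. The KCl-treated KO pairs of Gabra5, Gabrb1, Gabrb2 and Gabrd, and in neurites that of Gabra2, lie far apart.

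The 7 transcripts spanned a wide range of abundance, and Gabra5 had the highest mean in every group. Levels of different genes were compared per length, as CPM divided by the exon length in kilobases (FPKM, mean ± SD, n = 2). In WT soma Ctrl, Gabra5 stood at 59.9 ± 0.0815 FPKM, followed by Gabra2 at 20.5 ± 1.79, Gabra4 at 16.1 ± 1.23 and Gabrb2 at 9.14 ± 0.596. Gabrb1 at 6.88 ± 0.0945, Gabra3 at 4.70 ± 0.140 and Gabrd at 3.17 ± 0.194 completed the order, and no neighbours in it overlapped. In WT neurites Ctrl the order was the same, from 74.4 ± 5.89 FPKM for Gabra5 to 2.04 ± 0.689 for Gabrd, but Gabrb2 (7.75 ± 0.768) and Gabrb1 (7.45 ± 0.166) overlapped. After KCl, Gabra3 at 8.42 ± 0.610 FPKM stood above Gabrb1 at 7.45 ± 0.732 in WT soma, where Gabra4 (11.2 ± 1.06) and Gabrb2 (10.9 ± 0.382) overlapped. The order in KCl-treated WT neurites was that of untreated soma, without overlaps.

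Gabra3, next to last in untreated WT neurons, had the lowest mean of the 7 in all 4 KO groups, at 1.73 ± 0.535 FPKM in soma Ctrl and 1.53 ± 0.328 in neurites Ctrl. Gabra5 kept the highest mean in KO, at 39.0 ± 11.99 FPKM in soma Ctrl and 51.3 ± 15.1 in neurites Ctrl. In KO soma Ctrl Gabra4 (8.26 ± 2.74) and Gabra2 (8.001 ± 1.21) overlapped, as did Gabrb1, Gabrb2 and Gabrd in turn (5.195 ± 0.356, 4.39 ± 1.65 and 3.90 ± 0.113). In each KCl-treated KO group, all but 1 of the 6 neighbouring pairs overlapped. Neither rank held in KCl-treated KO insert 1 alone. There Gabrb1 stood above Gabra5 in neurites (12.8 and 8.78 FPKM) and level with it in soma (9.70 for both). Gabra3 (3.20 in neurites, 2.89 in soma) stood above Gabrb2 (1.22 and 1.98), and in neurites also above Gabrd (1.20). Among the other subunit genes in WT soma Ctrl, Gabrg3 (0.694 FPKM) and Gabrg1 (0.489 FPKM) were below every member, and the 7 genes Gabra6, Gabre, Gabrp, Gabrq, Gabrr1, Gabrr2 and Gabrr3 were at 0.213 FPKM or less.

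**Figure D2:**
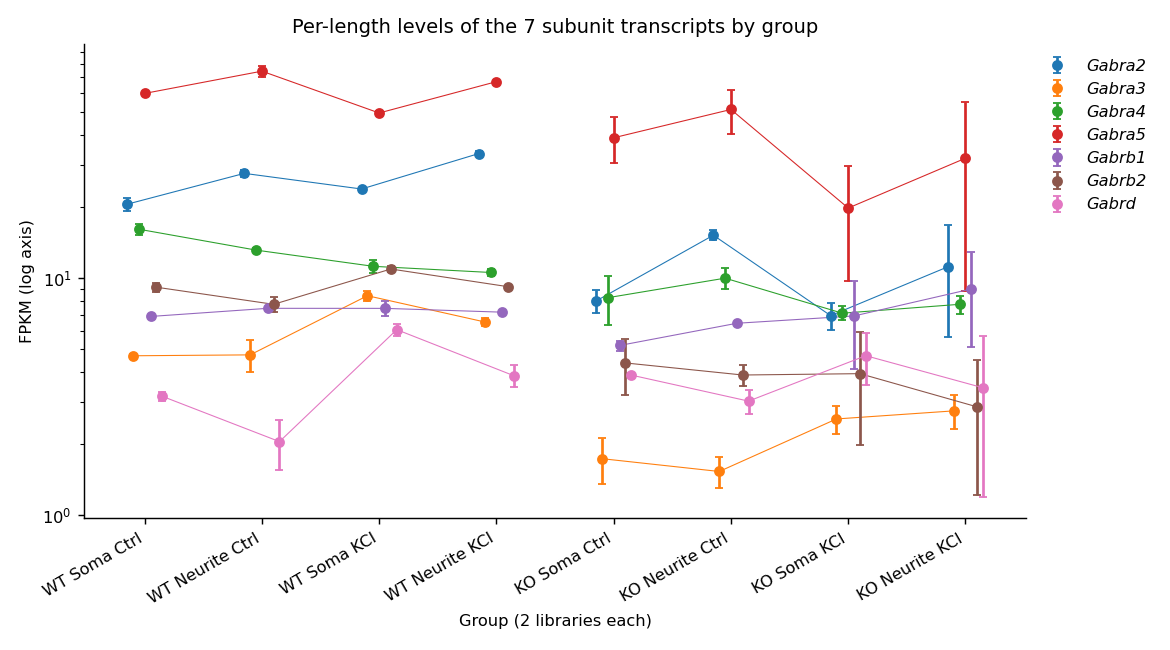
Per-length level (FPKM, log axis) of the 7 subunit transcripts in the 8 groups; points are means of 2 libraries, bars reach from the lower to the higher library, and lines join the groups of a genotype. By mean, Gabra5 is highest in every group and Gabra3 is lowest in the 4 KO groups, while ranges overlap in KCl-treated KO.

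The first comparison asked which subunit transcripts are enriched in or depleted from neurites of untreated WT neurons. Gabrd, the delta subunit of extrasynaptic receptors, was the only member called lower in neurites, and none was called higher. Gabra2 was higher and Gabra4 lower in neurites at an adjusted p of at most 0.05, but by less than the 1.5-fold that a call required. Gabrd measured 9.52 and 8.73 CPM in soma and 4.48 and 7.28 CPM in neurites. Both neurite libraries lay below both soma libraries, although neurite replicate 2 lay closer to the soma values than to its own partner. The log2 change was −0.74 ± 0.22 (SE), a neurite enrichment of 0.598-fold (adjusted p = 0.0409, edgeR quasi-likelihood test on the 8 WT libraries). This fit had no term for the insert, and the log2 ratios of neurite to soma in the 2 inserts were −1.09 and −0.26. With 1 of 7 members called, their share was near the 13.5% of 23200 genes called in either direction (4.52% lower). The call was lost without WT soma replicate 1, WT soma replicate 2 or WT neurite replicate 1 (log2 changes of −0.60, −0.73 and −0.42), and with another scaling of the libraries (RLE, adjusted p = 0.0515). The astrocyte markers summed to 3443 and 2298 CPM in these neurite libraries and 1427 and 1467 CPM in soma. The neuronal markers were also higher in neurites (3687 and 4100 against 3367 and 3478 CPM). The interneuron markers (10 genes) were lower (646 and 593 against 697 and 733 CPM). So were the 4 nuclear RNAs Malat1, Meg3, Snhg11 and Miat (3992 and 3905 against 6134 and 6129 CPM). The part of these markers in the result was not tested. In all these bulk libraries, fewer cells of a type and less RNA per cell cannot be told apart.

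Gabra2, the alpha subunit of many synaptic receptors, measured 166 and 147 CPM in WT soma and 204 and 218 CPM in neurites. The groups did not overlap, and the log2 change was 0.34 ± 0.11, or 1.27-fold (edgeR adjusted p = 0.0497). Gabra4, the usual partner of delta, measured 92.3 and 103 CPM in soma and 78.4 and 81.1 CPM in neurites. It was lower in both neurite libraries, with a log2 change of −0.38 ± 0.11, or 0.766-fold (edgeR adjusted p = 0.0386, and 0.0553 with RLE scaling). Adjusted p was at most 0.05 at any fold for 3 of 7 members and for 19.4% of all genes. Gabra5, with 178 and 178 CPM in soma and 209 and 234 in neurites, had a log2 change of 0.22 ± 0.10 (edgeR adjusted p = 0.167). Gabrb2, a beta subunit abundant in the adult brain, had 55.5 and 60.8 CPM in soma and 52.7 and 45.8 in neurites and a log2 change of −0.33 ± 0.12 (edgeR adjusted p = 0.0702). Gabra3 and Gabrb1 stood at log2 changes of −0.07 ± 0.16 and 0.02 ± 0.11 (edgeR adjusted p = 0.766 and 0.905). The median log2 change was −0.07 over the members and −0.10 over all genes tested.

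After KCl, the same comparison of WT neurites with soma called none of the 7 members by edgeR, against 9.54% of 23200 genes. Of the members, 4 had an unadjusted p under 0.05 (28.5% of genes), and DESeq2 called 1 member (10.4% of genes). Gabra2 and Gabra5, 2 of the alpha subunits, came closest, both higher in neurites with an adjusted p of at most 0.05 and a change below 1.5-fold; 13.3% of all genes passed at any fold. Gabra2 measured 180 and 183 CPM in KCl-treated soma and 249 and 262 CPM in neurites, and its log2 change was 0.51 ± 0.11, or 1.43-fold (edgeR adjusted p = 0.0123). Gabra5 measured 144 and 151 CPM in soma and 201 and 198 CPM in neurites, and its log2 change was 0.46 ± 0.11, or 1.37-fold (edgeR adjusted p = 0.0189). In both genes the 2 neurite libraries lay well above the 2 soma libraries. Gabrd measured 16.4 and 18.4 CPM in soma and 9.96 and 12.3 CPM in neurites, without overlap. Its log2 change of −0.63 ± 0.21 did not pass (edgeR adjusted p = 0.0810), whereas it was called by DESeq2 (adjusted p = 0.0194) and without the filter on low counts (adjusted p = 0.0230). The other 4 members had log2 changes between −0.35 (Gabra3) and −0.03 (Gabrb1), with edgeR adjusted p between 0.168 and 0.863. Interneuron markers summed to 813 and 783 CPM in these neurites and 1197 and 1129 CPM in soma. Neuronal markers summed to 4417 and 4828 against 4853 and 4428 CPM, and astrocyte markers to 2656 and 3111 against 1944 and 2002 CPM. The part of these markers in the result was not tested.

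Depolarization was then compared with the silenced state, to see which subunit transcripts responded within the treatment time. None of the 7 members reached the 2-fold change that a call required in WT soma, by edgeR or DESeq2, where edgeR called 6.81% of 23200 genes. Of the members, 4 had an unadjusted p under 0.05 (26.5% of genes). At any fold, 3 members had an adjusted p of at most 0.05 (13.6% of all genes): Gabra3 and Gabrd were higher after KCl and Gabra4 was lower. Gabra3 measured 18.8 and 18.1 CPM in untreated soma and 34.7 and 31.3 CPM after KCl. All 4 values were close to their partner and far from the other group, and the log2 change was 0.76 ± 0.15, or 1.70-fold (edgeR adjusted p = 0.00884). Gabrd rose from 9.52 and 8.73 CPM to 16.4 and 18.4 CPM, a log2 change of 0.86 ± 0.21, or 1.81-fold (edgeR adjusted p = 0.0238). Gabra4 measured 92.3 and 103 CPM before and 72.7 and 63.6 CPM after KCl, with a log2 change of −0.60 ± 0.11, or 0.661-fold (edgeR adjusted p = 0.00610). Alpha4 and delta, which combine in 1 receptor, thus had changes of opposite sign. Marker sums moved in the same libraries. Interneuron markers (10 genes) summed to 697 and 733 CPM in untreated and 1197 and 1129 CPM in KCl-treated soma, neuronal markers to 3367 and 3478 against 4853 and 4428 CPM, and astrocyte markers to 1427 and 1467 against 1944 and 2002 CPM. In neurites the interneuron markers summed to 646 and 593 CPM without and 813 and 783 CPM with KCl. The part of these markers in the KCl responses was not tested. The immediate early gene Fos, a marker of the response, measured 12.9 and 12.4 CPM before and 3204 and 2750 CPM after KCl.

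Gabra5 measured 178 and 178 CPM in untreated and 144 and 151 CPM in KCl-treated soma, a log2 change of −0.35 ± 0.11 just outside the threshold on p (edgeR adjusted p = 0.0521). Gabra2, Gabrb1 and Gabrb2 had log2 changes of 0.14 ± 0.11, 0.04 ± 0.11 and 0.18 ± 0.12 (edgeR adjusted p = 0.479, 0.873 and 0.373). The median log2 change was 0.14 over the members and 0.01 over all genes.

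In WT neurites Gabrd again had the largest KCl change of the members. It measured 4.48 and 7.28 CPM without and 9.96 and 12.3 CPM with KCl, so the groups did not overlap. The log2 change was 0.97 ± 0.22, or 1.96-fold (edgeR adjusted p = 0.0236), just under 2-fold, and 0 of 7 members were called by edgeR or DESeq2, against 4.94% of all genes by edgeR. Gabrd was also the only member past the adjusted threshold at any fold (8.45% of genes), and 5 members had an unadjusted p under 0.05 (22.6%). Without WT neurite Ctrl replicate 2 the log2 change was 1.34, and without WT neurite KCl replicate 1 it was 1.10, and in both cases Gabrd was called. Gabra3 measured 21.4 and 15.8 CPM before and 26.7 and 24.5 CPM after KCl, a log2 change of 0.49 ± 0.16 (edgeR adjusted p = 0.0865). Gabra4, at 78.4 and 81.1 CPM before and 66.3 and 62.0 CPM after KCl, had a log2 change of −0.28 ± 0.11 (edgeR adjusted p = 0.172). The 7 groups of values did not overlap between Ctrl and KCl neurites, 4 of them higher and 3 lower after KCl, where 25.7% and 27.0% of all genes did so in the same directions.

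**Figure D3:**
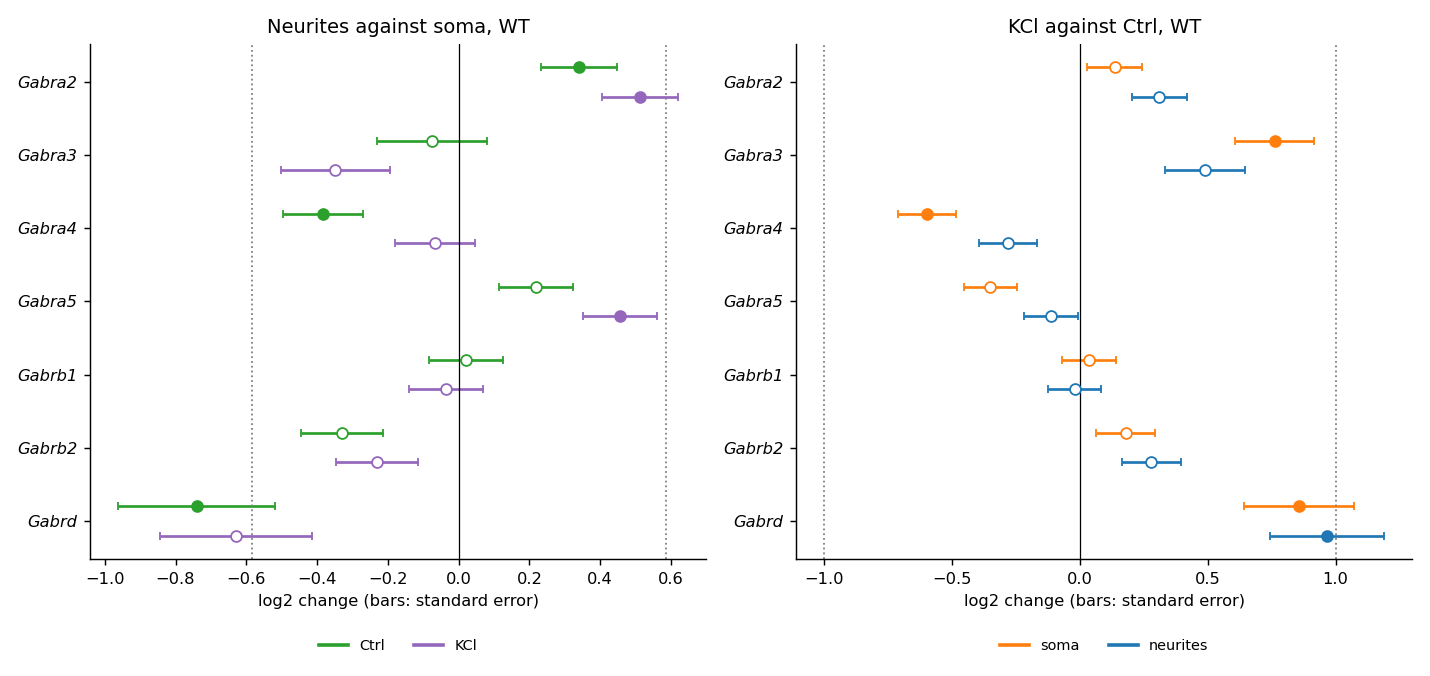
Log2 change (bars: SE) of the 7 subunit transcripts in WT neurons, on the left neurites against soma without and with KCl, on the right KCl against Ctrl in soma and neurites. Filled points have an edgeR adjusted p of at most 0.05 and dotted lines mark 1.5-fold (left) and 2-fold (right); the Ctrl point of Gabrd on the left is the only filled point beyond a dotted line.

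Whether depolarization shifted the transcripts between compartments was tested as the difference of the neurite enrichments (ΔFC N/S) in a fit with 1 term per insert. Soma and neurite libraries of the same genotype, treatment and number were taken as 1 insert, which no label states. A call required 1.5-fold and an unadjusted p no higher than 0.05. None of the 7 members met this rule in edgeR or DESeq2, 3.36% of 23200 genes did in edgeR, and 0 members had an unadjusted p under 0.05 at any fold (4.16% of genes). No gene passed after adjustment. The smallest p among the members was that of Gabra4, whose log2 difference was 0.32 ± 0.17 (unadjusted p = 0.0963, edgeR adjusted p = 0.999). In single inserts, the log2 ratio of neurite to soma for Gabra4 was −0.24 and −0.34 without and −0.13 and −0.03 with KCl. The other 6 members had log2 differences between −0.26 (Gabra3) and 0.24 (Gabra5), with standard errors of 0.17 to 0.30. Gabrd, with both fractions higher after KCl, had a log2 difference of 0.14 ± 0.30.

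Promoters were searched for the binding sequences of 2 transcription factor families that act in activity-dependent transcription. The windows held 250 bases before and 50 bases after the start (RefSeq, GRCm38.p6), and the 6 members other than Gabrd had 10 of them. On both strands, the full cAMP response element TGACGTCA was in 0 of the 10 windows (1.79% of 32851 promoters of the same length) and the AP-1 motif TGANTCA in 0 (7.81%). The short form TGACG, which the full element contains, was in 1 of the 10 windows (20.8% of promoters), that of Gabrb2. It is shown because it was the only match among the members, on the plus strand of GRCm38 with the antisense form of the motif in capitals.
Gabrb2 promoter, chr11:42420429-42420453: gggtcaggagCGTCAcagcgccaga
Gabrb2 was not among the members that passed a test after KCl (log2 changes of 0.18 in soma and 0.28 in neurites).

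Loss of Mettl3 was compared in untreated neurons to see whether subunit transcripts differ when m6A is not written. In soma, 6 of the 7 members were lower in both KO libraries than in both WT libraries, and Gabrd was higher in both. None was called by edgeR in a fit of all 16 libraries, where 0.189% of 23335 genes were called, and 3 members had an unadjusted p under 0.05 (8.95% of genes). Of all genes, 23.6% were lower without overlap and 25.0% higher. The KO libraries spread far more than the WT libraries (common biological coefficient of variation 0.505 against 0.151). Gabra3 measured 8.28 and 5.31 CPM in KO soma against 18.8 and 18.1 CPM in WT soma. The log2 change was −1.44 ± 0.31, or 0.368-fold (edgeR adjusted p = 0.124). Gabra2 measured 54.6 and 67.7 CPM against 166 and 147 CPM, a log2 change of −1.35 ± 0.39 or 0.391-fold (edgeR adjusted p = 0.282). Gabra4, which overlaps Gabrb1 at its start, measured 38.4 and 62.0 CPM against 92.3 and 103 CPM, a log2 change of −0.96 ± 0.25 (edgeR adjusted p = 0.226). In all 3 genes the higher KO library stayed well below the lower WT library.

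The 2 libraries of KCl-treated KO insert 1 are in neither group of this comparison. They enter it through the shared spread, the scaling and the filter on low counts. Without them, Gabra2 and Gabra3 were called lower in KO soma. Their log2 changes were −1.38 ± 0.18 and −1.48 ± 0.26 (edgeR adjusted p = 0.00872 and 0.0278), with 1.79% of 22901 genes called. DESeq2, on all 16 libraries, called Gabra3 and Gabra4 in soma (adjusted p = 0.000569 and 0.0433, with 1.77% of genes called). Gabrb2 measured 35.3 and 20.5 CPM in KO and 55.5 and 60.8 CPM in WT soma, a log2 change of −1.06 ± 0.55 (edgeR adjusted p = 0.622, and 0.0521 without that insert). Gabra5, at 90.7 and 141 CPM in KO soma against 178 and 178, and Gabrb1, at 68.4 and 75.4 against 94.3 and 96.2, had smaller log2 changes of −0.62 ± 0.66 and −0.41 ± 0.41 (edgeR adjusted p = 0.832 and 0.821). Gabrd measured 11.4 and 10.98 CPM in KO soma against 9.52 and 8.73 CPM in WT, a log2 change of 0.30 ± 0.54 (edgeR adjusted p = 0.911). The median log2 change was −0.96 over the members and 0.02 over all genes. Neuronal markers summed to 2995 and 3681 CPM in these KO soma libraries and to 3367 and 3478 CPM in WT soma, astrocyte markers to 2840 and 2180 CPM against 1427 and 1467, and their part in the result was not tested.

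In untreated neurites the directions were the same for all 7 members, again without overlap between KO and WT, and none was called by edgeR (0.171% of 23335 genes). Of the members, 2 had an unadjusted p under 0.05 (7.29% of genes), and 24.8% of all genes were lower and 23.6% higher without overlap. Gabra3 came closest to the threshold, at 6.91 and 5.09 CPM in KO neurites against 21.4 and 15.8 CPM in WT neurites. Its log2 change was −1.63 ± 0.31, or 0.323-fold (edgeR adjusted p = 0.0794). It was called without KCl-treated KO insert 1 (log2 change −1.60 ± 0.26, edgeR adjusted p = 0.0242, with 1.13% of genes called) and by DESeq2 (adjusted p = 9.2e-05, with 1.31% of genes called). Gabra2 measured 121 and 110 CPM against 204 and 218 CPM, a log2 change of −0.87 ± 0.38 (edgeR adjusted p = 0.659). Gabrb2, at 27.3 and 22.4 CPM against 52.7 and 45.8, had a log2 change of −0.99 ± 0.55 (edgeR adjusted p = 0.793). Gabra4 (66.9 and 54.6 CPM in KO), Gabra5 (184 and 121) and Gabrb1 (90.3 and 88.0) had log2 changes of −0.39 ± 0.25, −0.54 ± 0.66 and −0.21 ± 0.41. Gabrd measured 7.70 and 9.72 CPM in KO neurites against 4.48 and 7.28 CPM in WT, a log2 change of 0.57 ± 0.55 (edgeR adjusted p = 0.941). The comparisons in soma and in neurites draw on the same inserts, so their directions are not independent. Neuronal markers summed to 2887 and 3305 CPM in these KO neurite libraries and to 3687 and 4100 CPM in WT neurites, and interneuron markers (10 genes) to 489 and 498 CPM against 646 and 593, both without overlap. Astrocyte markers summed to 7175 and 3124 CPM in KO against 3443 and 2298 CPM. The median log2 change in neurites was −0.54 over the members, −0.50 over the neuronal markers and 0.01 over all genes, and the part of these markers in the result was not tested.

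**Figure D4:**
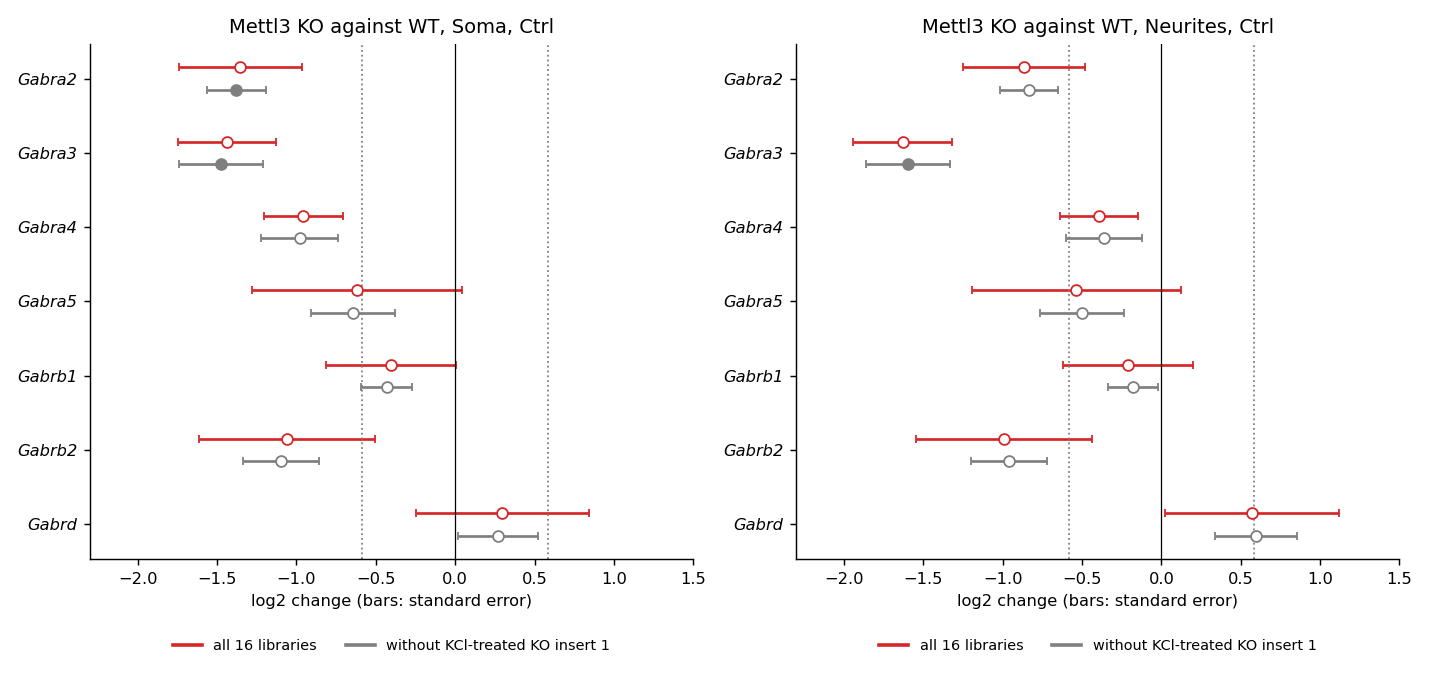
Log2 change (bars: SE) of the 7 subunit transcripts between untreated Mettl3 KO and WT neurons, in soma (left) and neurites (right), with all 16 libraries in the fit (red) and without the 2 libraries of KCl-treated KO insert 1 (grey). Filled points have an edgeR adjusted p of at most 0.05 and dotted lines mark 1.5-fold; Gabra2 and Gabra3 in soma and Gabra3 in neurites are filled without that insert.

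The change of neurite enrichment in untreated KO neurons against WT was called for none of the members by edgeR or DESeq2 under the same rule, against 4.29% of 23335 genes by edgeR, and 0 members had an unadjusted p under 0.05 at any fold. No gene passed after adjustment. Gabra4 had the largest log2 difference, 0.60 ± 0.34 (unadjusted p = 0.115, edgeR adjusted p = 0.929). Its log2 ratio of neurite to soma was 0.80 and −0.19 in the 2 untreated KO inserts and −0.24 and −0.34 in WT. Without KO soma or neurite replicate 2 the difference of Gabra4 was 1.16 and met the rule, that is, where insert 1 alone stood for KO. Gabra2 had neurite to soma log2 ratios of 1.15 and 0.70 in KO and 0.30 and 0.57 in WT, and a log2 difference of 0.49 ± 0.39 (unadjusted p = 0.244). Gabra2 was thus higher in neurites than in soma in all 4 untreated inserts. Gabra5 had ratios of 1.02 and −0.23 in KO, so its 2 KO inserts pointed in opposite directions.

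**Figure D5:**
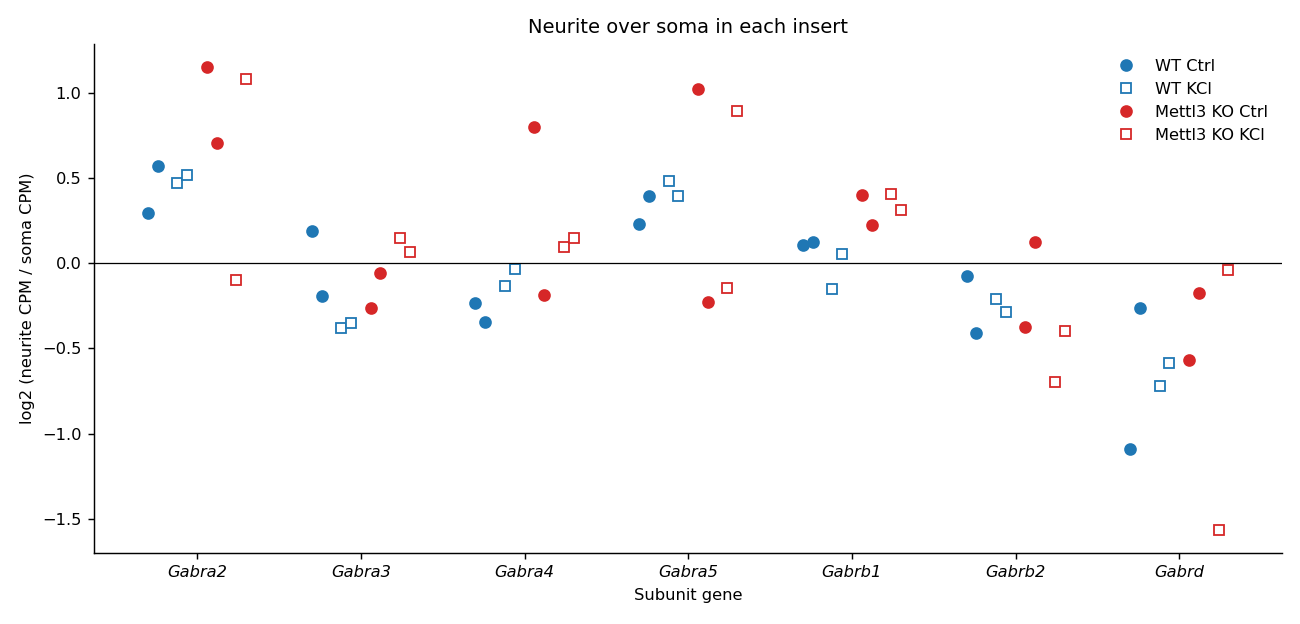
Log2 ratio of neurite to soma CPM of the 7 subunit transcripts in each of the 8 inserts, blue for WT and red for Mettl3 KO, filled circles for Ctrl and open squares for KCl. The 4 WT inserts of Gabra2 and Gabra5 lie above 0 and those of Gabra4, Gabrb2 and Gabrd below 0. KO inserts of Gabra2, Gabra3, Gabra4, Gabra5 and Gabrb2 lie on both sides.

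In KO soma, no member was called after KCl. Fos was not called either, at 37.9 and 58.2 CPM before and 1357 and 4283 CPM after KCl. Its log2 change was 5.81 ± 0.98 (edgeR adjusted p = 0.302), so the lack of a call says little about the members. edgeR called 0% of 23099 genes, and 0 members and 6.42% of genes had an unadjusted p under 0.05, while DESeq2 called 1.16% of genes and 0 members. Gabra5 measured 28.8 and 88.4 CPM after KCl against 90.7 and 141 CPM before, a log2 change of −1.05 ± 0.86 (edgeR adjusted p = 0.781). The lower KCl value is that of insert 1, and without that insert the log2 change was −0.44 ± 0.53. Gabrb1 measured 134 and 57.3 CPM against 68.4 and 75.4 CPM, so that the KCl-treated libraries lay on either side of the untreated ones. Its log2 change was 0.35 ± 0.54 with and −0.37 ± 0.41 without insert 1. Gabrb2, at 12.6 and 37.7 CPM against 35.3 and 20.5, turned from −0.19 ± 0.72 to 0.40 ± 0.47. Gabra3 measured 11.3 and 8.65 CPM against 8.28 and 5.31 CPM, without overlap, and its log2 change was 0.51 ± 0.47 (edgeR adjusted p = 0.788) and 0.31 ± 0.51 without insert 1. Gabrd measured 10.2 and 16.9 CPM against 11.4 and 10.98, Gabra4 40.3 and 46.2 against 38.4 and 62.0, and Gabra2 46.0 and 60.1 against 54.6 and 67.7. Their log2 changes were 0.22 ± 0.70, −0.29 ± 0.38 and −0.27 ± 0.52, and 0.55, −0.18 and −0.07 without insert 1.

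In KCl-treated KO neurites, insert 1 again held the outlying value of most members. Gabra5 measured 26.1 CPM there and 164 CPM in insert 2, Gabra2 43.0 and 127 CPM, Gabrb2 7.77 and 28.6 CPM and Gabrd 3.44 and 16.4 CPM. Gabrb1 was the reverse, with 178 CPM in insert 1 and 71.1 CPM in insert 2, whereas Gabra3 (12.5 and 9.07 CPM) and Gabra4 (43.0 and 51.2 CPM) differed little between the inserts. Astrocyte markers summed to 20366 CPM in insert 1 and 3044 CPM in insert 2 of these neurites, and oligodendrocyte markers to 7336 and 95.6. These sums were higher in insert 1, as Gabrb1 was. Neuronal markers summed to 853 and 5208 CPM and interneuron markers to 128 and 658 CPM. They were lower in insert 1, as Gabra5, Gabra2, Gabrb2 and Gabrd were. The part of all these markers was not tested. A difference of the soma KCl response between the genotypes was called for no member (edgeR called 0% of 23335 genes, DESeq2 2 genes, and 0 members and 2.01% of genes had an unadjusted p under 0.05). The log2 differences ran from −0.71 ± 0.93 (Gabra5) to 0.30 ± 0.35 (Gabra4), and for Gabra3 the difference was −0.28 ± 0.43. Without insert 1 they ran from −0.46 (Gabra3) to 0.42 (Gabra4).

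Of the 12 other subunit genes, 9 passed the filter on low counts in WT, and 1 of them was called in untreated neurites against soma, 0 with KCl, 0 after KCl in soma and 1 after KCl in neurites. Gabrg1, a gamma subunit of the chromosome 5 cluster, was called lower in untreated WT neurites (3.37 and 4.32 CPM in soma, 1.66 and 2.23 CPM in neurites, log2 change −1.09 ± 0.23, edgeR adjusted p = 0.00932). It was also called higher after KCl in WT neurites (4.70 and 4.84 CPM, log2 change 1.34 ± 0.23, edgeR adjusted p = 0.00493). The first of these calls was lost when WT soma Ctrl replicate 2 was left out (log2 change −0.83, edgeR adjusted p = 0.136), and both were lost with all 16 libraries in the fit (edgeR adjusted p = 0.859 and 0.956). The members of its cluster had log2 changes of 0.34 (Gabra2), −0.38 (Gabra4) and 0.02 (Gabrb1) in untreated neurites against soma, and differences between genes were not tested. In untreated KO against WT, 0 of the 9 were called in soma or in neurites. The change in neurite enrichment met its rule for Gabrg3 (lower, log2 difference −1.48 ± 0.38) and Gabrq (higher, 2.04 ± 0.87), neither of which passed after adjustment (0.929 for both). Gabrq had counts of only 4 and 8 in KO soma and met the rule in none of the 6 fits that left out an untreated WT library or a replicate 2 library of untreated KO, and Gabrg3 missed it without the insert term (unadjusted p = 0.0585).

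Of 23 genes of the GABAergic synapse, all tested, 1 was called in untreated WT neurites against soma and 2 with KCl. Trak2, a motor adaptor first described through its binding to GABA-A receptors, was called higher in WT neurites without KCl (118 and 107 CPM in soma, 261 and 319 CPM in neurites, log2 change 1.28 ± 0.18, edgeR adjusted p = 0.00140). It was called with KCl as well (log2 change 1.16 ± 0.18, edgeR adjusted p = 0.00306). Gad1, which makes GABA in interneurons, was called lower in KCl-treated neurites (514 and 536 CPM in soma, 329 and 352 CPM in neurites, log2 change −0.61 ± 0.11, edgeR adjusted p = 0.00664). The call of Gad1 was lost without WT neurite KCl replicate 1 (log2 change −0.57, edgeR adjusted p = 0.0819) and without WT soma KCl replicate 2 (−0.56, under 1.5-fold). With all 16 libraries in the fit, Gad1 and both calls of Trak2 were lost (edgeR adjusted p = 0.990, and 0.307 and 0.746). After KCl, 0 of the 23 were called at 2-fold in WT soma or neurites. The median log2 change of the 23 genes between KO and WT was −0.12 in soma and −0.09 in neurites, beside −0.96 and −0.54 for the 7 members and −0.15 and −1.0004 for the other subunit genes, with 0 called in each.

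Correlations over the 16 libraries describe how far the members moved together, and they share the groups, the inserts and the KO libraries that stood apart. On the log2 scale of CPM, Gabra2 and Gabra5 had r = 0.85, Gabra2 and Gabrb2 0.81 and Gabra5 and Gabrb2 0.80. In the 8 WT libraries alone the same pairs had r = 0.54, −0.31 and −0.92, so both pairs with Gabrb2 changed sign. Gabra3 and Gabrb2 kept their sign, with r = 0.66 over 16 and 0.82 over 8 libraries. Gabrb1 had an r of 0.39 or below with every other member over 16 libraries. Among 15163 genes, those whose level was most like the mean of the members included Plppr4 (r = 0.98 over 16 and 0.97 over 8 WT libraries), Epha7 (0.98 and 0.91), Atp2c1 (0.97 and 0.74) and Slc7a4 (0.97 and 0.72).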

How the data were processed

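RNA of 16 libraries was read as counts per gene, which the authors deposited after trimming (Flexbar), alignment to mm10 (STAR 2.7.7a) and counting of read pairs on Ensembl 97 genes (featureCounts 2.0.1, multi-mapping reads included, no strand setting stated). Total counts per library ran from 33789183 to 71394235, and a gene's precision is limited by the 2 libraries per group. Replicates were distinct litters. The authors also deposited, per methylated RNA, a DART-seq score for KO, WT, soma and neurites, and per site the fraction of C-to-U edited reads. Both are means over libraries with unknown depth, from sites in a RAC motif with more editing in WT than in KO (Bullseye). Columns of the authors' own fold changes and p-values were not used.

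Genes that averaged 10 counts or more were tested with edgeR 4.0.16 (R 4.3.3; TMM scaling, quasi-likelihood test, Benjamini-Hochberg adjustment over all genes). WT comparisons were fitted on the 8 WT libraries, the KCl response of KO soma on the 8 KO libraries, and comparisons of genotypes on all 16. Neurites were compared with soma without a term for the insert. Changes of neurite enrichment had 1 term per insert, since the study paired the soma and neurite samples of an insert. Libraries of the same genotype, treatment and number were assumed to be such a pair, which no label states. Inserts are numbered throughout on that assumption. A call required an adjusted p of at most 0.05 and 1.5-fold (2-fold for KCl responses). For changes of neurite enrichment it required an unadjusted p of at most 0.05 and 1.5-fold. These are thresholds of the study, but its 2-fold limit was set for soma only and was carried over to neurites here. The study set none for the genotype difference of the KCl response, where 1.5-fold was used. Alternatives were DESeq2 1.42.0, RLE scaling, other filters, other sets of libraries, a replicate block and leaving out each library. On simulated data, the fit of untreated KO against WT soma called 1 of 50 genes changed 2-fold and 14 of 50 changed 4-fold. That of untreated WT neurites against soma called 8 of 50 genes changed 1.5-fold and 44 of 50 changed 2-fold. The fit of the KCl response of WT soma called 24 of 50 genes changed 2-fold. A gene that was not called is therefore not shown to be unchanged. The genes changed in these simulations averaged 100 counts or more. Of the genes left unchanged, 13 were called in the fit of WT neurites against soma. The fit of the KCl response called 9 of them, and that of KO against WT called 0. The 7 members and all lists were chosen with earlier results of these data known. All members were named. Of the other subunit and GABAergic synapse lists at most 4 called genes per comparison were named, with subunit genes that share a cluster with a member, and genes among the 5 most like the mean log2 CPM of the members over 16 libraries. Ctrl and KCl cultures shared litters, but no source used here says which replicate numbers share one, so fits of KCl responses had no litter term and a replicate block was an alternative. Figures were drawn with matplotlib 3.10.9. Results of some items of these lists are not reported here.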

Additional observations from a re-analysis of the deposited data

Results flagged for a closer look

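Some members moved in opposite directions in every library pair of the groups set side by side, with 2 inserts per group. The differences themselves were not tested, and with 7 members and several pairs of groups such patterns occur by chance. For Gabra3, the log2 ratio of neurite to soma was below 0 in both untreated KO inserts (−0.26 and −0.06) and above 0 in both KCl-treated KO inserts (0.15 and 0.07), a difference of 0.27. Under KCl, the same ratio of Gabra3 was −0.38 and −0.35 in the WT inserts, a difference of 0.47 between KO and WT. Gabra4 under KCl had ratios of −0.13 and −0.03 in WT and 0.09 and 0.15 in KO, a difference of 0.21. KCl-treated KO insert 1, with the high glial marker sums, is 1 of the 2 inserts in each of these comparisons.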

How the results depend on the processing

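The count of called members depended on the setting as follows. For untreated WT neurites against soma, the 1 call (Gabrd) became 0 with RLE scaling, with all 16 libraries and with only the groups compared, was 0 to 1 when 1 library was left out, and became 3 without a limit on the fold. With KCl, 0 calls became 1 with DESeq2 and with no filter on low counts, and 2 without a limit on the fold. For the KCl response, 0 calls became 3 in WT soma and 1 in WT neurites without a limit on the fold, and in neurites were 0 to 1 when 1 library was left out. For KO against WT in soma, 0 calls became 2 with DESeq2, 1 with no filter, 1 with the replicate block (Gabra3, adjusted p = 0.0446), 2 without KCl-treated KO insert 1, and 0 to 1 when 1 library was left out (Gabra3 without KO soma Ctrl replicate 1, log2 change −1.73, adjusted p = 0.00565). In neurites, 0 calls became 1 with DESeq2, with no filter, with the replicate block (Gabra3, adjusted p = 0.0331) and without that insert. The KO change in neurite enrichment had 0 to 1 calls when 1 library was left out. For KO against WT in soma, 0.189% of all genes were called in the main fit, 1.77% with DESeq2 and 1.79% without that insert. In neurites these shares were 0.171%, 1.31% and 1.13%. The share is not given for no filter, the replicate block or leaving out 1 library. Counts of members called there thus cannot be set against all genes. The cause was not tested. The other 110 recomputed counts equalled the first value, which was 0 in every comparison but untreated WT neurites against soma. In the KCl response of KO soma and its difference between genotypes, the main fit called no gene at all. Equal counts of 0 there say little about the members. The block called 1 member (Gabrd) for untreated WT neurites and 0 for the other WT comparisons and the KCl response of KO soma, so it changed the call of no member in a KCl response. By the study's methods, soma and neurites of 1 insert were kept together and Ctrl and KCl cultures shared litters. No source used here ties a replicate number to an insert, or to a litter across treatments. Deviations of same-numbered soma and neurite libraries correlated at −0.14 and 0.02 in WT and 0.07 and 0.90 in KO (Ctrl and KCl). Without the insert term, and with crossed numbers, chosen after seeing the data as was leaving out the insert, 0 members were called in both changes of neurite enrichment.

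The sign turned in 39 of the recomputed values of single log2 changes. Untreated WT neurites against soma gave −0.0041 for Gabrb1 with the filter at a mean of 100 counts, and 0.013 and 0.0052 for Gabra3 with all 16 libraries and with only the groups compared. The KCl change in WT neurite enrichment gave −0.0060 for Gabrb2 with all 16 libraries. Without the insert, the KCl response of KO soma gave −0.37 (Gabrb1) and 0.40 (Gabrb2), and its difference between genotypes −0.41 and 0.22. With 1 library left out, the ranges that cross 0 were, for untreated WT neurites against soma, −0.32 to 0.13 (Gabra3), and with KCl −0.15 to 0.044 (Gabra4) and −0.12 to 0.081 (Gabrb1). For the KCl response of WT soma the range was −0.038 to 0.13 (Gabrb1). For the KCl change in enrichment they were −0.064 to 0.31 (Gabra2), −0.16 to 0.030 (Gabrb1), −0.18 to 0.27 (Gabrb2) and −0.38 to 0.54 (Gabrd). For the KO change in enrichment they were −0.35 to 0.041 (Gabra3), −0.58 to 0.78 (Gabra5), −0.065 to 0.37 (Gabrb2) and −0.11 to 0.73 (Gabrd). For the KCl response of KO soma they were −0.67 to 0.16 (Gabra4), −0.32 to 0.83 (Gabrb1), −1.20 to 0.44 (Gabrb2) and −0.20 to 0.59 (Gabrd), and for its difference between genotypes −0.53 to 0.0060 (Gabra3), −0.065 to 0.73 (Gabra4), −0.44 to 0.79 (Gabrb1) and −1.40 to 0.19 (Gabrb2). With 2 libraries per group, leaving 1 out leaves a lone library that is assumed to vary like the other groups.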
